A study of Mus musculus with 16 samples.

Results

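A set of 8 genes that sense foreign compounds or carry them out of the epithelial cell, of 24421 genes counted, was followed through bulk RNA sequencing of the mouse small intestine. They were chosen by name: the receptors Nr1i2, Nr1i3 and Ahr, the apical pumps Abcb1a, Abcb1b, Abcc2 and Abcg2, and the basolateral pump Abcc3. The libraries hold epithelial cells that EDTA had released from a segment of the jejunum and a segment of the ileum of C57BL6/J mice, titled WT, with 2 males and 2 females at postnatal day 6 (P6, before weaning) and 2 males and 2 females at postnatal day 36 (P36, after weaning). Each of the 8 mice gave both regions, so the 4 groups (P6 jejunum, P6 ileum, P36 jejunum and P36 ileum) hold 4 libraries each, 16 in all. Replicates 1 and 2 of every group came from females and replicates 3 and 4 from males, and the same number at 1 age marks the same mouse. At P6 the mouse names in the titles share a prefix in replicates 1 and 3 and another in replicates 2 and 4. No fit used this prefix. Of the 8 genes, 7 passed the filter on low counts and were tested among 13429 genes. Abcb1b did not pass, and its counts are given without a test of its level.

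In the intestine, the nuclear receptors PXR (encoded by Nr1i2) and CAR (Nr1i3) bind drugs, bile acids and other lipophilic compounds, pair with the retinoid X receptor RXR and raise the transcription of cytochrome P450 enzymes, conjugating enzymes and transporters. The aryl hydrocarbon receptor (Ahr) binds planar aromatic compounds from food and from microbes, pairs with Arnt and acts on Cyp1a1 and related genes. The pumps of the ATP-binding cassette (ABC) family then return compounds or their conjugates to the lumen through P-glycoprotein (Abcb1a and Abcb1b), MRP2 (Abcc2) and BCRP (Abcg2), or pass conjugates to the blood through MRP3 (Abcc3).

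Library totals lay between 12159237 counts in P36 ileum and 25947276 counts in P6 jejunum. Markers of epithelium were detected in every group, with summed levels of 3655 to 5976 CPM (read counts scaled to the library total and by TMM factors) at P6 and 10203 to 14854 at P36. One library stood apart. The log2 CPM of P6 ileum replicate 4 correlated with the other libraries of its group at a mean r of 0.902, against 0.943 to 0.954 for the other 3 P6 ileum libraries and 0.964 to 0.985 in the other groups. Its deviation from those 3 libraries followed the GC content of transcripts, with Spearman's rho of -0.754 across 12948 genes, and its summed epithelial markers were the lowest of the group at 3655 CPM. Of these markers Krt8, Krt19 and Vil1 were low in it (256, 35.6 and 751 CPM). Epcam was 1745 CPM against 1831 to 2138, and Cdh1 was the highest of the group at 867. P6 ileum replicate 2 held stromal markers: its summed level was 43.0 CPM for endothelium against 2.87 to 6.27 in the rest of the group, 198 against 1.08 to 2.89 for smooth muscle, and 245 against 20.2 to 42.2 for fibroblasts. Results that rest on P6 ileum are therefore given with and without these libraries where the call changes. T cell markers summed to 94.6 and 133 CPM in P36 jejunum replicates 1 and 3 and to 10.1 and 15.7 in replicates 2 and 4.

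Scaled for transcript length (TPM), Abcc2 was the most abundant of the 8 genes at P6 and Abcg2 at P36. In P6 jejunum the order was Abcc2 (300 ± 54.6 TPM, SD, n = 4), Abcg2 (223 ± 23.8), Nr1i2 (153 ± 4.57), Nr1i3 (65.0 ± 3.04), Abcb1a (25.8 ± 2.13), Ahr (3.72 ± 0.634), Abcc3 (3.04 ± 0.412) and Abcb1b (0.00490 ± 0.00981), and only the ranges of Ahr and Abcc3 overlapped between neighbours. In P6 ileum Abcc2 reached 953 ± 400 TPM, above 99.4% of all genes, and Abcg2 495 ± 139, while Abcb1a (98.2 ± 26.2) and Nr1i2 (93.0 ± 25.1) overlapped in the next 2 places. Nr1i3 (42.0 ± 13.0 TPM), Ahr (8.97 ± 1.44), Abcc3 (2.17 ± 0.618) and Abcb1b (0.405 ± 0.375) followed without overlap.

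At P36 the levels lay closer together. In P36 jejunum the ranges of Abcg2 (153 ± 16.0 TPM), Abcc2 (126 ± 34.2) and Nr1i2 (113 ± 13.5) overlapped from each to the next, as did those of Nr1i3 (82.6 ± 7.14) and Abcb1a (79.4 ± 22.2), and below them stood Abcc3 (37.5 ± 3.39), Ahr (6.64 ± 0.549) and Abcb1b (0.172 ± 0.161). In P36 ileum the ranges overlapped from each gene to the next from Abcg2 (277 ± 89.4 TPM) through Abcb1a (132 ± 64.1), Nr1i2 (88.7 ± 16.1) and Abcc2 (31.8 ± 24.2) to Abcc3 (31.7 ± 4.70), and those of Nr1i3 (7.42 ± 5.11) and Ahr (5.19 ± 0.819) overlapped as well. Abcb1b came last in every group, at 0.0893 ± 0.0600 TPM in P36 ileum.

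**Figure D1:**
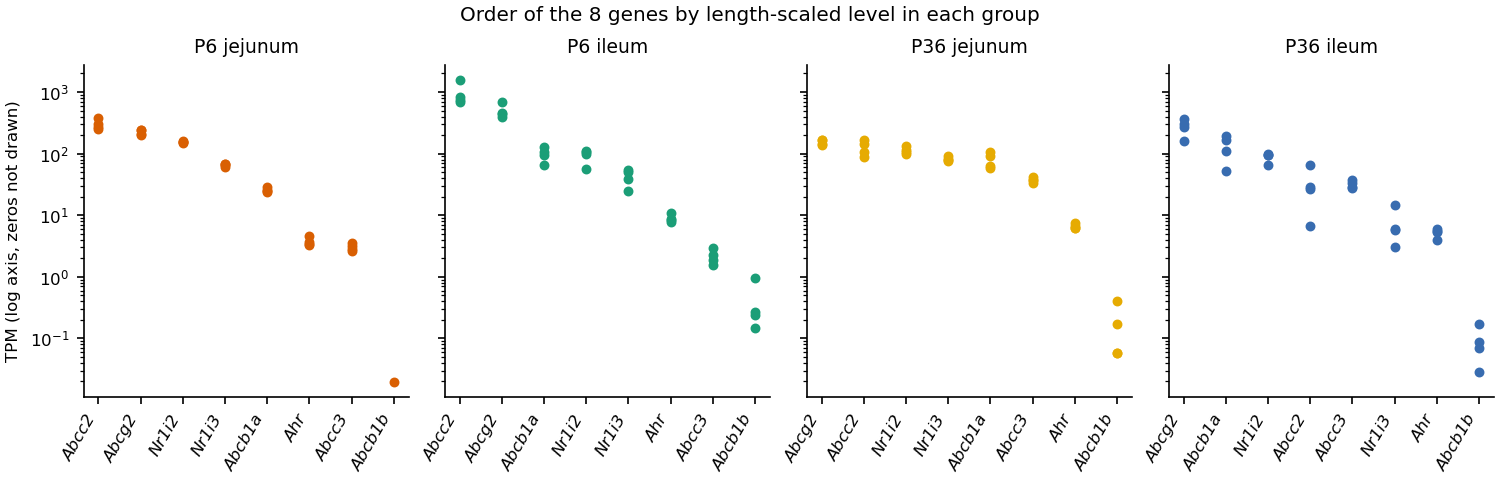
Level of the 8 genes in the 4 groups in TPM on a log axis, with a point for each library, values of 0 not drawn, and the genes of each group in the order of their means. Abcc2 leads at P6, at a mean of 300 in the jejunum and 953 in the ileum, and lies at 31.8 in P36 ileum.

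Nr1i2 (chr16:38248349-38294824 in mm10, minus strand) encodes PXR. Its level in the 4 P6 jejunum libraries was 205, 199, 174 and 199 CPM, and in the P6 ileum of the same mice 106, 99.7, 100 and 49.8 CPM. The jejunum was higher in all 4 mice and the groups did not overlap, with P6 ileum replicate 4 far below the rest. The log2 fold change (jejunum over ileum) was 1.13 ± 0.20 (SE; edgeR quasi-likelihood test, Benjamini-Hochberg adjusted p = 0.000746), and without replicate 4 it was 0.93 (adjusted p = 0.000134). In these bulk samples, fewer cells of a type and less RNA per cell cannot be told apart. At P36 the levels were 160, 174, 133 and 149 CPM in the jejunum and 138, 112, 86.9 and 127 CPM in the ileum. The jejunum was again higher in 4 of 4 mice, but the groups overlapped and the difference did not pass the test (0.41 ± 0.20, adjusted p = 0.196). It passed when a trend with GC content was removed, alone (0.44, adjusted p = 0.0353) or with the mouse as a block (0.44, adjusted p = 0.0195). Neither age comparison passed, at -0.33 ± 0.20 in the jejunum (P36 over P6, adjusted p = 0.182) and 0.38 ± 0.20 in the ileum (adjusted p = 0.119), the latter moving to 0.40 with an adjusted p of 0.0220 once the GC trend was removed.

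Nr1i3 (chr1:171213970-171218845, plus strand) encodes CAR and was the receptor with the widest range. It stood at 43.9, 48.9, 44.4 and 47.5 CPM in P6 jejunum and at 20.9, 28.3, 28.2 and 12.4 CPM in P6 ileum, and at 73.6, 59.5, 57.1 and 62.5 CPM in P36 jejunum. In P36 ileum it fell to 11.6, 3.80, 2.33 and 4.43 CPM. No pair of groups compared overlapped, and P36 ileum was the lowest of the 4 groups in every library. The jejunum exceeded the ileum by 3.52 ± 0.39 on the log2 scale at P36, which is 11.4-fold (adjusted p = 1.76e-05), and by 1.04 ± 0.35 at P6 (adjusted p = 0.0412). All 4 mice were higher in the jejunum at P6, but that call was lost when any 1 of 6 of the 8 P6 libraries was left out, each jejunum library and ileum replicates 1 and 4 (adjusted p from 0.0641 to 0.0878), with a value of 0.84 without P6 ileum replicate 4 (adjusted p = 0.0683). With age Nr1i3 fell in the ileum (-2.03 ± 0.37, adjusted p = 0.000267, 4.08-fold lower), while the jejunum value of 0.45 ± 0.35 did not pass (adjusted p = 0.30). The regional difference itself changed with age: its P6 value less its P36 value was -2.48 ± 0.51 (adjusted p = 0.00599). Exons of Nr1i3 share 257 of 1414 bases with Tomm40l on the opposite strand, and reads were counted by strand.

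Ahr (chr12:35497979-35534989, minus strand) was detected at a lower level, and its regional direction differed between the ages. Its levels were 10.2, 9.28, 11.9 and 9.52 CPM in P6 jejunum against 17.7, 18.7, 15.9 and 21.4 CPM in P6 ileum. At P36 they were 20.3, 21.3, 18.1 and 19 CPM in the jejunum and 16.2, 13.9, 17.1 and 11.7 CPM in the ileum. The ileum was the higher region in all 4 P6 mice and the jejunum in all 4 P36 mice, with no overlap at either age. The P6 difference of -0.85 ± 0.15 passed the test (adjusted p = 0.000557) and the P36 difference of 0.41 ± 0.15 did not (adjusted p = 0.0713). With the mouse as a random effect the P36 value was 0.41 with an adjusted p of 0.0394, and with the mouse as a fixed block it was 0.43 with an adjusted p of 0.106. The change between the ages was itself called (-1.27 ± 0.21, adjusted p = 0.00122). Ahr rose in the jejunum from P6 to P36 (0.95 ± 0.15, adjusted p = 6.54e-05), and the ileum value was -0.32 ± 0.15 (adjusted p = 0.0786). Lymphocytes also express Ahr. The T cell sum ran from 10.1 to 133 CPM among the P36 jejunum libraries, with Ahr at 18.1 to 21.3 CPM, and it was 4.14 to 9.57 CPM in P6 jejunum and 3.14 to 13.9 in P6 ileum. The part of these cells in the Ahr values was not tested.

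**Figure D2:**
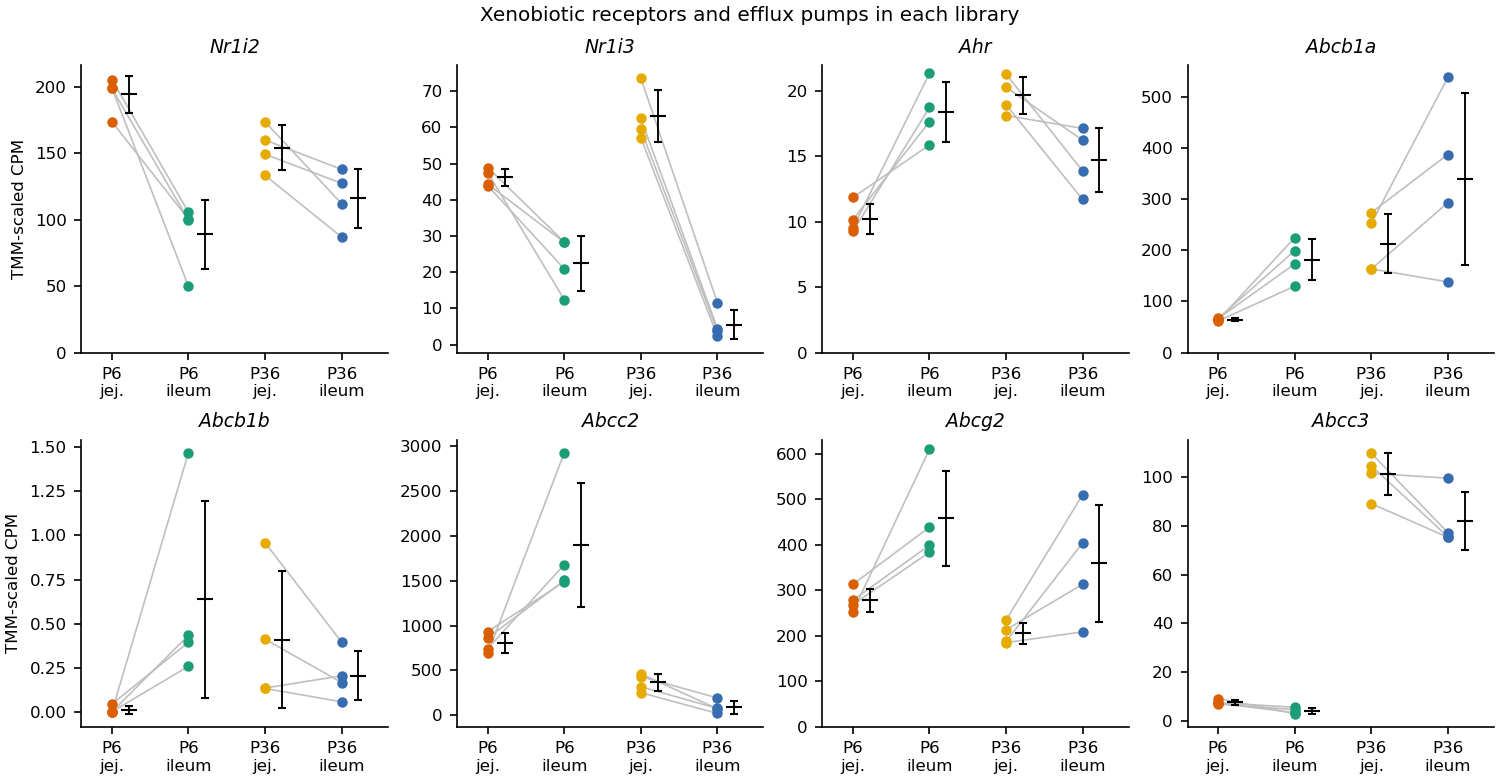
CPM of each of the 8 genes in the 16 libraries, by group, with a point for each library, grey lines joining both regions of a mouse, and the mean ± SD of 4 beside the points. Nr1i3 and Abcc2 are lowest in P36 ileum, Abcc3 lies between 2.91 and 9.12 in every P6 library and between 75.3 and 110 in every P36 library, and Ahr is lowest in P6 jejunum.

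The sequence before the start of Nr1i3 and of Abcc2 is shown because these were the receptor and the pump whose regional difference at P36 passed both thresholds. RefSeq (GRCm38.p6) gave a promoter for 6 of the 8 genes, of which 5 begin at the start used for counting. Ahr and Abcc3 had none. The 250 bases before each start were searched on both strands for GCGTG, the core to which Ahr and Arnt bind, and for AGGTCA and AGTTCA, the hexamers to which PXR and CAR bind with RXR. AGGTCA lay 49 to 44 bases before the start of Abcc2, where it is in capitals, and no match to the 3 motifs lay in the Nr1i3 sequence. AGGTCA also lay before 2 further starts listed for Abcg2, at position 58584533 on both strands and at 58640546, and AGTTCA lay 176 to 171 bases before a distal start of Abcb1a. Among 32851 promoters of the same length, 14% held AGGTCA, 11.8% AGTTCA and 28.2% GCGTG, so a match is common, and GCGTG was in none of the windows of these genes.
Nr1i3, chr1:171213720-171213969, plus strand: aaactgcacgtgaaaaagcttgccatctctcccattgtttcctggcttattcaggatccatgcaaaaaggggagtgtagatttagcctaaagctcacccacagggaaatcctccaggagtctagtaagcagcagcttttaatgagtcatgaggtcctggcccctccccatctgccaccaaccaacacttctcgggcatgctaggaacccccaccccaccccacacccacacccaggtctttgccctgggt
Abcc2, chr19:43782058-43782307, plus strand: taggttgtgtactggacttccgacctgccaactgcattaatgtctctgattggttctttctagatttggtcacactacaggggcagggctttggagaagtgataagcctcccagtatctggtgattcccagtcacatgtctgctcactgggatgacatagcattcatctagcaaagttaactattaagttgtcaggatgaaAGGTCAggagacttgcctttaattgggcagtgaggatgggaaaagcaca

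Abcb1a (chr5:8660092-8748570, plus strand), the main P-glycoprotein gene of the rodent intestine, was lowest in P6 jejunum. It stood at 66.6, 61.5, 66.2 and 62.7 CPM there and at 199, 130, 173 and 224 CPM in P6 ileum. At P36 it was 252, 273, 163 and 163 CPM in the jejunum and 537, 387, 138 and 293 CPM in the ileum. The ileum exceeded the jejunum in 4 of 4 mice at P6 without overlap (-1.50 ± 0.31, adjusted p = 0.00220) and in 3 of 4 at P36, where the groups overlapped and the test was not passed (-0.67 ± 0.31, adjusted p = 0.160). The exception at P36 was the mouse of replicate 3, and without its ileum library the P36 value was -0.93 (adjusted p = 0.0170). With the mouse as a block and the GC trend removed together it was -0.61 (adjusted p = 0.0342). The block alone (adjusted p = 0.106) and the GC correction alone (adjusted p = 0.0873) did not pass. From P6 to P36 Abcb1a rose in the jejunum by 1.73 ± 0.31, or 3.31-fold (adjusted p = 0.000254), without overlap. It also rose in the ileum, by 0.90 ± 0.31 (adjusted p = 0.0209), but the ileum groups overlapped and the call was lost without P36 ileum replicate 1 (0.59, adjusted p = 0.0954), P36 ileum replicate 2 (0.83, adjusted p = 0.0514) or P6 ileum replicate 2 (0.77, adjusted p = 0.0623).

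Abcb1b (chr5:8798147-8866314, plus strand), the second P-glycoprotein gene of the mouse, gave 1, 0, 0 and 0 read pairs in P6 jejunum, 8, 6, 8 and 30 in P6 ileum, 7, 3, 3 and 18 in P36 jejunum and 3, 1, 5 and 5 in P36 ileum. A count of 0 allows up to 3 counts, or 0.134 to 0.157 CPM in those 3 libraries, which covers counting error only. The highest count came from P6 ileum replicate 4. Per kilobase, Abcb1a exceeded Abcb1b by 129 to 2978 times across the 16 libraries after 1 was added to each count. The log2 ratio of Abcb1b to Abcb1a was -8.11 ± 0.75 in P6 ileum and -10.15 ± 1.34 in P36 ileum (exact two-sided permutation p = 0.0286, the smallest that 4 libraries against 4 allow; Benjamini-Hochberg adjusted over 8 ratio tests, 0.0381), and the 1 to 5 read pairs in P36 ileum make the second value uncertain. The P36 regions did not pass this test (exact p = 0.257). In P6 jejunum the ratio is set by the added count and by Abcb1a, and it is not compared.

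The 2 P-glycoprotein genes are near copies, and the counting left out reads that matched several places. Their coding sequences of 3828 bases each were identical at 3364 of 3819 aligned bases, or 88.1%, in GENCODE vM21. Of all 50-base windows, 15.5% of Abcb1a and 18% of Abcb1b occurred in the other gene, and of all 100-base windows 7.49% and 8.72%. Some reads of both may thus not have been counted, and their share was not measured. A stretch without a difference (coding bases 1357 to 1506 of Abcb1a and 1366 to 1515 of Abcb1b) and the stretch of the same length with the most differences (45, in capitals; coding bases 2093 to 2242 and 2099 to 2248) show where a read can and cannot be placed.
Abcb1a and Abcb1b, identical stretch: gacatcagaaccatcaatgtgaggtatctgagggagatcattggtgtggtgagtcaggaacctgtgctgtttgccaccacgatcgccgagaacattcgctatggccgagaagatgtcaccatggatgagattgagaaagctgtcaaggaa
Abcb1a, divergent stretch: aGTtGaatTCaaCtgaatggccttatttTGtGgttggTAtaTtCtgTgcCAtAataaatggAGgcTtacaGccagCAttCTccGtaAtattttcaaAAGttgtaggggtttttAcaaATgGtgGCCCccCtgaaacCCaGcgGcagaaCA
Abcb1b, divergent stretch: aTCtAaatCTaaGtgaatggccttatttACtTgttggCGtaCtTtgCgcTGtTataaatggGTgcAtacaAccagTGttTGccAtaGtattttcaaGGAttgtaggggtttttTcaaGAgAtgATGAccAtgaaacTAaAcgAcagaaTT

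Abcc2 (chr19:43782308-43838218, plus strand), whose promoter is printed with that of Nr1i3, encodes MRP2, an apical exporter of glucuronide, glutathione and sulphate conjugates. Of the apical pumps tested it covered the widest range. The levels were 744, 861, 933 and 688 CPM in P6 jejunum and 1680, 1503, 1488 and 2930 CPM in P6 ileum. They were 431, 462, 252 and 317 CPM in P36 jejunum and 193, 72.0, 19.2 and 75.6 CPM in P36 ileum. The ileum was the higher region in each P6 mouse and the lower one in each P36 mouse, and the groups did not overlap at either age. At P36 the jejunum exceeded the ileum by 2.02 ± 0.47, or 4.07-fold (adjusted p = 0.00787). At P6 the value of -1.24 ± 0.46 did not pass (adjusted p = 0.0600), passed with the mouse as a fixed block (-1.18 ± 0.37, adjusted p = 0.0431) but not as a random effect (-1.19, adjusted p = 0.0737), and was -0.95 without P6 ileum replicate 4 (adjusted p = 0.140).

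With age Abcc2 in the ileum fell by 4.40 ± 0.52 on the log2 scale, to a level 21.2-fold lower (adjusted p = 3.44e-06), and it fell by 4.11 without P6 ileum replicate 4 (adjusted p = 6.08e-06). The jejunum fell by 1.14 ± 0.46 (adjusted p = 0.0488), without overlap, and this call was lost when any 1 of the 8 jejunum libraries was left out (adjusted p from 0.0569 to 0.156) and with the mouse as a random effect (0.0649). The regional difference at P6 less that at P36 was -3.26 ± 0.66 (adjusted p = 0.00534). Among all tested genes the pattern over the 16 libraries that was most like that of Abcc2 belonged to Gm10768 (r = 0.990), which starts 584 bases past the counted end of Abcc2. Of its bases, 94.9% lie in the last exon of a longer Abcc2 transcript in GENCODE vM21, so its reads and those of that transcript cannot be told apart.

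Abcg2 (chr6:58596672-58692451, plus strand), the breast cancer resistance protein that exports conjugates and dietary compounds, was higher in the ileum at both ages. It measured 313, 269, 278 and 253 CPM in P6 jejunum and 439, 384, 399 and 610 CPM in P6 ileum. At P36 it measured 235, 213, 185 and 188 CPM in the jejunum and 510, 313, 209 and 404 CPM in the ileum. Each of the 8 mice was higher in the ileum, and the groups overlapped only at P36. The difference was -0.72 ± 0.22 at P6 (adjusted p = 0.0269) and -0.81 ± 0.22 at P36 (adjusted p = 0.0219), and its change between the ages was 0.09 ± 0.32 (adjusted p = 0.894). Each call was lost without any 1 of 4 of its 8 libraries. At P6 these were ileum replicate 4 (-0.55, adjusted p = 0.0623) and jejunum replicates 2, 3 and 4 (adjusted p from 0.0571 to 0.0773), and removal of the GC trend gave -0.43 (adjusted p = 0.151). At P36 they were ileum replicate 1 (-0.59, adjusted p = 0.0586), ileum replicate 4 and jejunum replicates 3 and 4 (adjusted p from 0.0644 to 0.0714). The age values of -0.44 ± 0.22 in the jejunum (adjusted p = 0.113) and -0.35 ± 0.22 in the ileum (adjusted p = 0.192) did not pass.

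Abcc3 (chr11:94343295-94392976, minus strand) encodes MRP3, which moves conjugates and bile acids across the basolateral membrane towards the blood, and it had the largest rise with age of the 7 genes tested. At P6 it was 9.12, 6.87, 7.40 and 7.18 CPM in the jejunum and 2.91, 4.56, 5.53 and 3.33 CPM in the ileum. At P36 it was 105, 110, 89.2 and 102 CPM in the jejunum and 75.6, 77.3, 75.3 and 99.6 CPM in the ileum. Every P36 library lay above every P6 library. The rise was 3.73 ± 0.19 in the jejunum, or 13.2-fold (adjusted p = 2.57e-10), and 4.32 ± 0.20 in the ileum, or 20.0-fold (adjusted p = 1.11e-10). The jejunum exceeded the ileum in 4 of 4 mice at each age, by 0.90 ± 0.18 at P6 without overlap (adjusted p = 0.00175) and by 0.31 ± 0.17 at P36 with overlap (adjusted p = 0.257).

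The balance of basolateral to apical pump for conjugates was followed through the ratio of Abcc3 to Abcc2 within each library, which does not depend on how libraries are scaled. It can still move with GC content, at 54.25% for Abcc3 transcripts and 45.17% for Abcc2. Per kilobase, Abcc2 exceeded Abcc3 by 75.4, 116, 116 and 88.4 times in P6 jejunum and by 527, 303, 247 and 804 times in P6 ileum. The factor of 804 came from P6 ileum replicate 4, whose deviation followed GC content. No test of the ratio without this library or with the GC trend removed is given. In P36 jejunum the factor was 3.82, 3.90, 2.62 and 2.90. In P36 ileum it was 2.37 in replicate 1, and in replicates 2, 3 and 4 Abcc3 exceeded Abcc2 by 1.16, 4.22 and 1.42 times. Thus no P6 library approached parity, and 3 of the 4 P36 ileum libraries had more Abcc3 than Abcc2.

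The mean log2 ratio of Abcc3 to Abcc2 was -6.60 ± 0.31 in P6 jejunum, -8.72 ± 0.77 in P6 ileum, -1.71 ± 0.29 in P36 jejunum and 0.39 ± 1.36 in P36 ileum (SD, n = 4). Each of the 4 comparisons gave an exact two-sided permutation p of 0.0286, the smallest possible, and 0.0381 after adjustment over 8 tests. The difference was 2.12 between the P6 regions (jejunum minus ileum), -2.09 between the P36 regions, 4.90 with age in the jejunum and 9.11 with age in the ileum. Within mice the regional sign was the same in 4 of 4 at each age (exact sign-flip p = 0.125, the smallest that 4 mice allow).

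**Figure D3:**
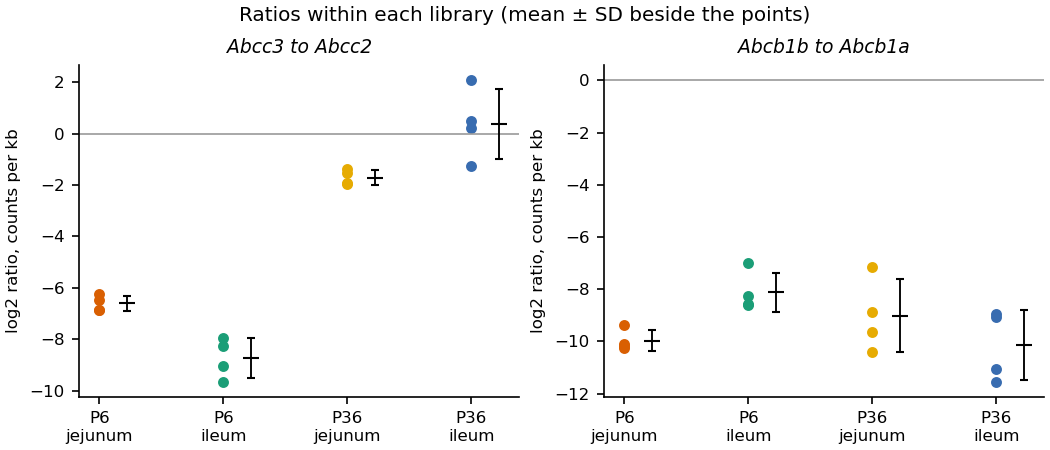
Log2 ratio of counts per kilobase within each library, for Abcc3 to Abcc2 and for Abcb1b to Abcb1a, by group, with a point for each library, the mean ± SD of 4 beside the points and a grey line at equal levels. The first ratio runs from a mean of -8.72 in P6 ileum to 0.39 in P36 ileum, and the second stays between -11.54 and -7.01, its P6 jejunum points being set by the 1 added to each count.

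Several of the 8 genes varied together among the P36 ileum libraries. Nr1i2, Nr1i3, Abcb1a, Abcc2 and Abcg2, 5 of the 8 genes, were all highest in replicate 1 and lowest in replicate 3, by factors of 1.59, 4.96, 3.90, 10.0 and 2.44. Ahr went the other way, highest in replicate 3 at 17.1 CPM, and Abcc3 varied by 1.32 times. The summed Paneth cell markers were highest in replicate 3 as well (14815 CPM against 5303 to 8067 in the other 3). So was the sum of stem and cycling cell markers (1494 against 695 to 1192), led by Olfm4 (756 against 306 to 456). Lgr5 and Top2a were also highest in replicate 3. Mki67 (383 against 359 in replicate 3) and Ascl2 (4.02 against 3.80) were highest in replicate 2. Summed goblet cell markers were lowest in replicate 3 (9273 against 13586 to 18042). Within that sum Spink4 was highest there (1151 against 519 to 975), and Tff3 at 1956 lay within the rest (1591 to 2236). Vil1, a structural gene of the microvillus, was 4486, 2317, 1380 and 2687 CPM in replicates 1 to 4. Its highest and lowest levels lay in the same mice as those of the 5 genes, as did those of Epcam and Cdh1. The epithelial markers Krt8 (4929, 4810, 6099 and 6074 CPM) and Krt19 (2147, 2650, 3202 and 3279) were higher in replicates 3 and 4. In the P36 jejunum, 6 of the 8 genes were also lowest in replicate 3, the same mouse. The part of these cell types in the spread was not tested.

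At P6, 6 of the 7 tested genes differed between the regions at an adjusted p under 0.05, against 25.9% of all genes tested. Nr1i2, Nr1i3 and Abcc3 were higher in the jejunum (11.1% of all genes) and Ahr, Abcb1a and Abcg2 in the ileum (14.8%), and none passed the added log2 fold change of 2 (6.5%). The median log2 fold change of the 7 was -0.72, against -0.05 over all genes tested. GC content moved with this split. The 3 genes higher in the jejunum had transcripts of 52.99% to 54.25% GC, above the median gene, the 3 higher in the ileum and Abcc2 had 39.22% to 46.2%, below it, and P6 ileum replicate 4 was the lowest library of its group for Nr1i2 and Nr1i3 and the highest for Ahr, Abcb1a, Abcc2 and Abcg2. With the GC trend removed, 5 of the 6 calls were kept, with log2 fold changes of 1.09 for Nr1i2, 1.02 for Nr1i3, -0.66 for Ahr, -1.27 for Abcb1a and 0.77 for Abcc3, and Abcg2 was lost. Markers of other cells also moved with the P6 regions, and their part was not tested. The summed myeloid markers were 423 to 512 CPM in the jejunum and 172 to 368 in the ileum. Nearly all of this sum was Csf1r (414 to 498 and 152 to 333). Cd68 (5.56 to 11.4 and 11.4 to 24.9) and Itgam (0.916 to 1.84 and 2.17 to 4.85) ran the other way. Lyz2, Adgre1 and Cx3cr1 reached at most 1.01 CPM in the jejunum and 3.01 in the ileum.

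At P36, 3 of the 7 differed between the regions, against 16.1% of all genes, with Nr1i3 and Abcc2 higher in the jejunum (8.3%) and Abcg2 in the ileum (7.8%). Nr1i3 and Abcc2 also passed the fold minimum (3.6%). The median log2 fold change was 0.41, against -0.04 over all genes. The region-by-age interaction was called for 3 of the 7, Nr1i3, Ahr and Abcc2, against 8.69% of all genes, and in each the difference of jejunum over ileum was lower at P6 than at P36. The values of Nr1i2 (0.72 ± 0.29, adjusted p = 0.141; 0.66 and 0.0413 once the GC trend was removed), Abcb1a (-0.83 ± 0.43, adjusted p = 0.272) and Abcc3 (0.60 ± 0.25, adjusted p = 0.161) did not pass.

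Between the ages, 4 of the 7 differed in the jejunum and 4 in the ileum, which is close to the 51.6% and 55.7% of all genes that did. In the jejunum Ahr, Abcb1a and Abcc3 rose (24.7% of all genes) and Abcc2 fell (26.9%). In the ileum Abcb1a and Abcc3 rose (25.5%) and Nr1i3 and Abcc2 fell (30.1%). Abcc3 alone passed the fold minimum in the jejunum, and Nr1i3, Abcc2 and Abcc3 in the ileum (16.4% of all genes in each region). The median log2 fold change was 0.45 in the jejunum and -0.32 in the ileum, against -0.01 and -0.03 over all genes. Markers of goblet cells (1682 to 4010 CPM at P6, 7659 to 18042 at P36) and Paneth cells (25.3 to 809 and 4277 to 14815) also moved with age. So did the epithelial sum given above, and the part of these cells was not tested. Within that sum Krt8 (256 to 1330 and 2832 to 6099) and Krt19 (35.6 to 354 and 1189 to 3279) moved without overlap. Vil1 (751 to 1578 and 1380 to 4486), Epcam (1137 to 2138 and 1381 to 2229) and Cdh1 (790 to 867 and 801 to 1063) overlapped between the ages. In the Paneth cell sum at P6, Itln1 was 435 to 782 CPM in replicates 1 and 3 and 4.36 to 10.3 in replicates 2 and 4. This split followed the prefix of the mouse names, and the part of the prefix in the results was not tested.

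**Figure D4:**
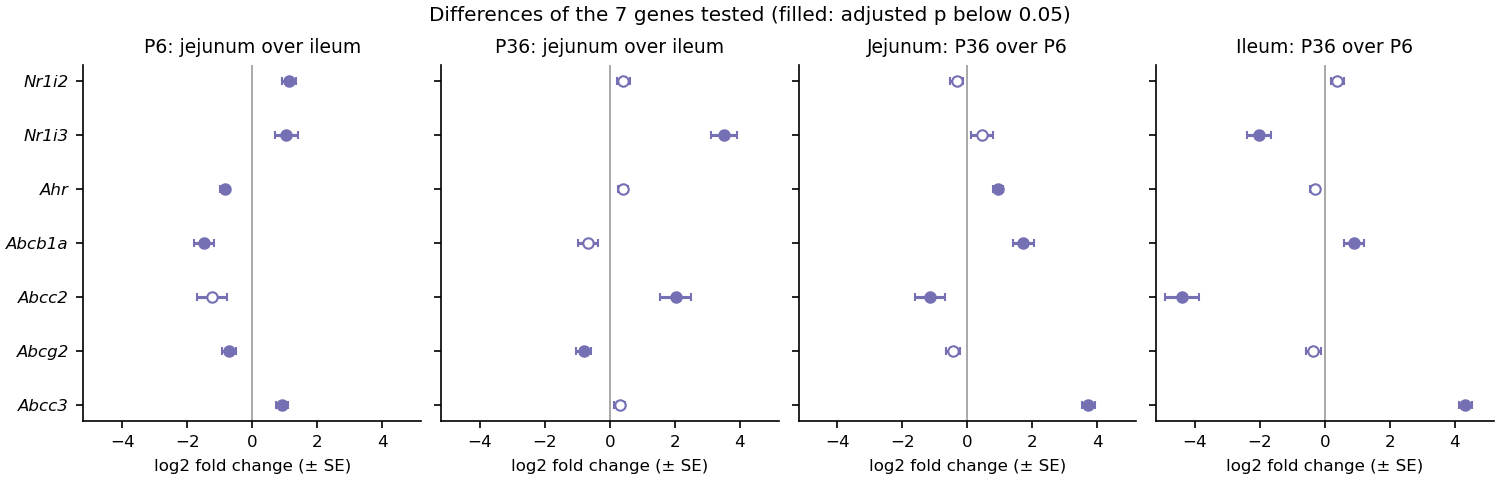
Log2 fold change with its standard error for the 7 tested genes between the regions at each age (jejunum over ileum) and between the ages in each region (P36 over P6), filled where the adjusted p is under 0.05. Nr1i3 and Abcc2 reach 3.52 and 2.02 between the P36 regions, and Abcc3 reaches 3.73 and 4.32 between the ages.

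Sex was tested as female over male across the 16 libraries. None of the 7 genes was called by edgeR or DESeq2, and none had an unadjusted p under 0.05 (the smallest was 0.0704, for Nr1i2), while 482 of all genes had one. Of all genes 8 were called, or 0.0596%.

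The genes on which PXR and CAR act were then read from a list of 16, of which 14 were tested. With age 12 of the 14 rose in the jejunum (24.7% of all genes did) and none fell, at a median of 3.05 on the log2 scale, and 10 rose (25.5%) and 1 (Ugt1a1) fell in the ileum, with a median of 2.88. The medians of all genes tested were those given above, between -0.05 and -0.01. Those that did not pass in the jejunum were Ugt1a1 and Por. At P36, 8 of the 14 were higher in the jejunum (8.3% of all genes) and none in the ileum (7.8%), with a median of 1.55. At P6, the jejunum held more of 5 (Cyp3a25, Ces2a, Ugt1a1, Aldh1a1 and Por, against 11.1% of all genes) and the ileum of 1 (Gsta1, against 14.8%), with a median of 0.82. The calls of Ugt1a1 and Aldh1a1 at P6 were each lost when any 1 of 5 of the 8 libraries was left out. At P36 that of Cyp2c55 was lost without any 1 of 6, and that of Gsta1 without any 1 of 4. The interaction was called for 2, Gsta1 and Gstm1 (8.69% of all genes). Genes outside the rule for naming are named here and in the lists that follow after their values were seen.

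Cyp3a11, a drug-metabolising cytochrome P450 and a standard readout of PXR, stood at 1.00, 0.624, 1.26 and 0.766 CPM in P6 jejunum and at 0.493, 0.215, 0.325 and 0.196 in P6 ileum. It stood at 360, 231, 123 and 183 CPM in P36 jejunum and at 20.3, 9.13, 0.367 and 3.80 in P36 ileum. It was higher in the jejunum at P36 by 4.74 ± 0.72 (adjusted p = 0.000312) and rose with age in both regions, by 7.94 ± 0.86 (adjusted p = 1.30e-06) and 4.76 ± 0.88 (adjusted p = 0.000268). In P36 ileum its order over the mice was that of Nr1i3 at both ends, highest in replicate 1 and lowest in replicate 3. Genes of the Cyp3a cluster are similar in sequence, and counts of single members are uncertain.

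Cyp2b10, the classical target of CAR, gave 4 read pairs in all of P6 jejunum and 1 in all of P6 ileum. It reached 571, 489, 205 and 418 CPM in P36 jejunum and 2.93, 4.02, 0.204 and 2.29 CPM in P36 ileum. The P36 regions differed by 7.50 ± 0.62 on the log2 scale (adjusted p = 1.03e-06), in the same direction as Nr1i3. In P6 jejunum, where Nr1i3 stood at 43.9 to 48.9 CPM, Cyp2b10 was at most 0.105 CPM. Cyp3a13 (206 ± 28.6 CPM in P6 jejunum and 922 ± 202 in P36 jejunum) and Aldh1a1 (59.6 ± 29.5 and 311 ± 133) rose in the jejunum by 2.16 ± 0.34 (adjusted p = 6.97e-05) and 2.39 ± 0.45 (adjusted p = 0.000371). Por, the electron donor of the P450 enzymes, followed Nr1i2 in being higher in the jejunum at P6 (1.32 ± 0.28, adjusted p = 0.00264) but not called at P36 (0.57 ± 0.28, adjusted p = 0.190) or between the ages.

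Of 7 genes listed for the Ahr response, Cyp1a1, Tiparp and Nqo1 were tested, and Ahrr gave 84 read pairs in all 16 libraries and was not. Cyp1a1, the hydrocarbon-metabolising P450 that Ahr induces, stood at 8.29, 5.60, 1.12 and 3.89 CPM in P36 jejunum and at 0 to 0.237 CPM in the other 12 libraries. It was higher in the jejunum at P36 (5.27 ± 0.88, adjusted p = 0.000654), rose with age there (6.48 ± 0.96, adjusted p = 3.51e-05) and was called for the interaction (-6.04 ± 1.62, adjusted p = 0.0298), a call lost when any 1 of 7 of the 16 libraries was left out (adjusted p from 0.0506 to 0.134). Nqo1, a quinone reductase that also answers to Nfe2l2, rose in the jejunum (1.89 ± 0.24, adjusted p = 7.21e-06) and the ileum (1.28 ± 0.24, adjusted p = 0.000276). Tiparp, which dampens Ahr, fell in the ileum (-0.80 ± 0.26, adjusted p = 0.0143), but P6 ileum replicate 4 held 103 CPM against 40.1 to 52.8 in the rest of its group, and without it the value was -0.43 (adjusted p = 0.0549). None of the 3 was called between the P6 regions, where Ahr itself was higher in the ileum. The medians of the 3 were -0.34 and 0.54 between the regions at P6 and P36 and 1.89 and 0.44 with age in the jejunum and ileum.

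**Figure D5:**
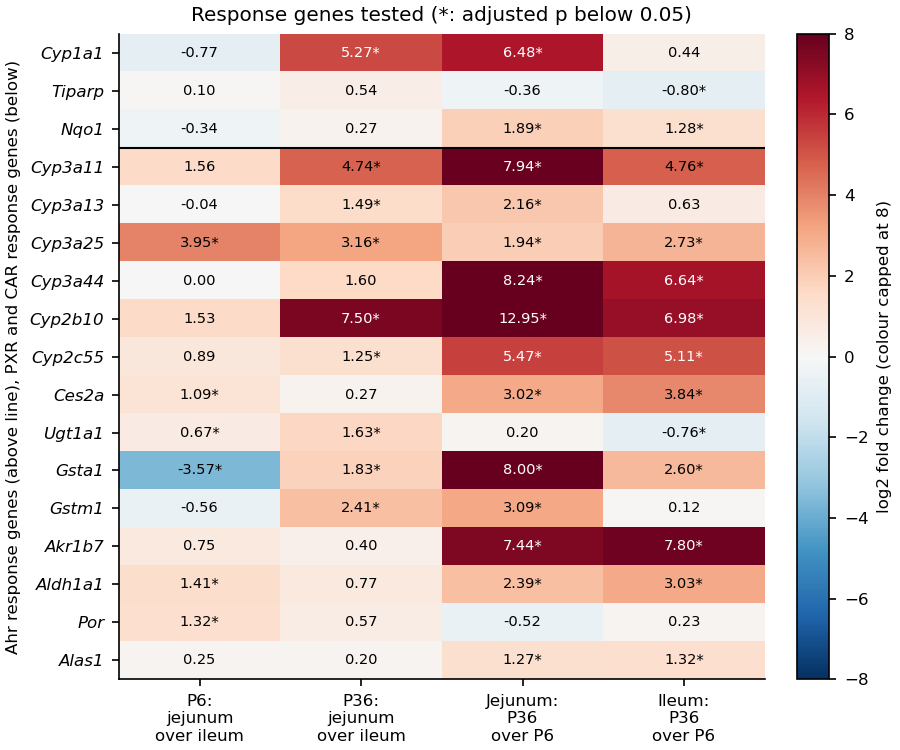
Heat map of the log2 fold changes of the tested response genes of Ahr (above the line) and of PXR and CAR (below it), one row a gene and one column a comparison (jejunum over ileum at each age, P36 over P6 in each region), with the value in each cell, an asterisk where the adjusted p is under 0.05 and the colour capped at 8. Cyp2b10 (7.50), Cyp1a1 (5.27) and Cyp3a11 (4.74) have the largest values between the P36 regions, and the size of values with age for genes near 0 at P6, such as Cyp2b10, depends on the prior count of the fit.

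Of 15 partners and co-regulators of the receptors, 14 were tested. With age 4 of them were called in each region, against 51.6% and 55.7% of all genes, and between the regions 2 at P6 and 1 at P36, against 25.9% and 16.1%. Without P6 ileum replicate 4 the count was 4 between the P6 regions and 7 with age in the ileum. The share of all genes called without that library is not given. Rxra, the partner of PXR and CAR, stood at 126 to 141 CPM in P6 jejunum, 134, 136, 155 and 38.0 in P6 ileum, 149 to 169 in P36 jejunum and 142 to 211 in P36 ileum, and it was called in no comparison. The low value is again P6 ileum replicate 4, and Rxra transcripts hold 57.04% GC. Arnt, the partner of Ahr, fell with age in the jejunum (-0.62 ± 0.14, adjusted p = 0.00194) and in the ileum (-0.85 ± 0.14, adjusted p = 0.000131). Arnt2 fell with it in both regions, Ncoa3 rose in both, Ppargc1a rose in the jejunum and Hsp90ab1 in the ileum (0.46 ± 0.16, adjusted p = 0.0273, lost when any 1 of 3 of the 8 libraries was left out). Between regions Arnt2 and Ptges3 were higher in the ileum at P6 and Ppargc1a in the jejunum at P36. Arnt2 and Ppargc1a were called for the interaction, against 8.69% of all genes. The interaction call of Arnt2 was lost without any 1 of 11 of the 16 libraries, and that of Ppargc1a without any 1 of 7. Ptges3 was -0.58 (adjusted p = 0.0473) and went to -0.31 without P6 ileum replicate 4 (adjusted p = 0.133). Its call was lost without any 1 of 6 of the 8 libraries. The median of the 14 lay between -0.10 and 0.18 in each of the 5 comparisons. Hsp90aa1 and Ncor1 were called in none.

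Of 11 other ABC exporters, 10 were tested. With age in the jejunum 6 fell (Abcb11, Abcc4, Abcc5, Abcc6, Abcc10 and Abcg1, against 26.9% of all genes) and 2 rose (Abcc1 and Abca1, against 24.7%), with a median of -0.98. In the ileum the same 2 rose (25.5% of all genes) and 5 fell (30.1%), Abcc10 not passing (median -0.76). Abcc6 went from 132 ± 12.9 CPM in P6 jejunum to 29.0 ± 8.34 in P36 jejunum (-2.19 ± 0.47, adjusted p = 0.00112). Between regions Abcb11 and Abcg5 were higher in the jejunum at both ages, Abcg8 at P6 and Abca1 at P36, while Abcc1 and Abcc4 were higher in the ileum at both ages and Abcg1 at P6 (medians 0.48 and 0.45). Abcg5, which with Abcg8 returns sterols to the lumen, differed by 1.03 ± 0.22 at P6 (adjusted p = 0.00267) and 0.96 ± 0.22 at P36 (adjusted p = 0.00731), opposite in direction to Abcg2. Abca1 was called for the interaction, against 8.69% of all genes. The calls of Abcc10 with age in the jejunum and of Abcg8 at P6 were each lost without any 1 of 7 of the 8 libraries. That of Abcb11 at P36 was lost without any 1 of 5. That of Abcg1 with age in the jejunum was lost without any 1 of 2. The rise of Abca1 in the ileum went from 1.48 to 0.62 without P36 ileum replicate 1, and its call was lost (adjusted p = 0.0627).

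All 16 solute carriers of drugs and organic ions were tested. With age 9 rose (24.7% of all genes) and 4 fell (Slc22a5, Slco2a1, Slc19a1 and Slc46a1, against 26.9%) in the jejunum, and 10 rose (25.5%) and 3 fell (Slc22a5, Slco2a1 and Slc46a1, against 30.1%) in the ileum, with medians of 1.79 and 1.91. At P6, the jejunum held more of 8 carriers (11.1% of all genes) and the ileum of Slc22a4, Slco3a1 and Slc10a2 (14.8%), with a median of 0.79. At P36 Slc47a1, Slc15a1 and Slc46a1 were higher in the jejunum (8.3% of all genes). Slco3a1, Slc51a, Slc51b and Slc10a2 were higher in the ileum (7.8%), and the median was 0.11. At P6 the calls of Slc51a (any 1 of 6), Slc46a1 and Slco4a1 (each any 1 of 5), Slc22a3 (any 1 of 3) and Slc22a4 (any 1 of 2) were lost with a library left out. At P36 those of Slc15a1 and Slco3a1 were each lost without any 1 of 4. With age in the ileum that of Slc15a1 went from 1.91 to 0.96 without P36 ileum replicate 1 and was lost (adjusted p = 0.0632). Slc15a1, the peptide transporter that also takes up beta-lactam drugs, rose in the jejunum from 135 ± 22.1 to 1043 ± 299 CPM (2.95 ± 0.57, adjusted p = 0.000455), and in P36 ileum it ran from 714 CPM in replicate 1 to 38.1 in replicate 3, the same mice at both ends as for Abcc2. Slc51b, a subunit of the basolateral bile acid exporter, turned from the jejunum at P6 (1.93 ± 0.20, adjusted p = 4.54e-06) to the ileum at P36 (-1.28 ± 0.20, adjusted p = 0.000325), with an interaction of 3.21 ± 0.28 (adjusted p = 3.58e-06), opposite in sign to that of Abcc2. Slc51a and Slc19a1 had interactions of the same sign as Slc51b, and Slc22a4 of the opposite sign, against 8.69% of all genes called. Without P6 ileum replicate 4 the interaction was called for 8 carriers in place of 4. The share of all genes called in that fit is not given.

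All 13 further transcription factors of intestinal transporter genes were tested. With age 5 rose in the jejunum (Hnf4g, Nfe2l2, Vdr, Ppara and Nr3c1, against 24.7% of all genes) and 2 fell (Nr1h4 and Nr0b2, against 26.9%). In the ileum 6 rose (25.5% of all genes) and none fell (30.1%). The medians were 0.19 and 0.33. Vdr, the vitamin D receptor, which shares target genes with PXR, rose from 54.4 ± 11.1 to 448 ± 28.4 CPM in the jejunum (3.04 ± 0.15, adjusted p = 2.31e-10) and from 85.7 ± 4.76 to 407 ± 41.4 in the ileum (2.25 ± 0.15, adjusted p = 5.34e-09). At P6 Vdr was higher in the ileum (-0.66 ± 0.14, adjusted p = 0.00314), as Ahr was. Nfe2l2, the factor of the antioxidant response, was higher in the jejunum at P6 (0.61 ± 0.11, adjusted p = 0.00106) and P36 (1.16 ± 0.12, adjusted p = 5.64e-06). Nr0b2 and Gata4 at P6, and Hnf4g and Gata4 at P36, were the others higher in the jejunum. Nr3c1 at P6 and Nr1h4 at P36 were the others higher in the ileum (medians 0.19 and 0.12). The shares of all genes were 11.1% for the jejunum and 14.8% for the ileum at P6, and 8.3% and 7.8% at P36. The interaction, called for 8.69% of all genes, was called as positive for Nr1h4 and Nr0b2 and as negative for Hnf4g, Nfe2l2 and Vdr. That of Nfe2l2 (-0.56, adjusted p = 0.0430) was lost without any 1 of 10 of the 16 libraries, and that of Vdr without any 1 of 2. With the GC trend removed Nfe2l2 was -0.33 (adjusted p = 0.113). The P6 call of Nr3c1 was lost without any 1 of 5 of its 8 libraries. With the GC trend removed it was lost (-0.13, adjusted p = 0.306), as was that of Gata4 at P6 (2.35, adjusted p = 0.0607). With age the calls of Ppara in the jejunum and Nr1h3 in the ileum were each lost without any 1 of 2 of the 8 libraries. That of Hnf4g in the ileum was lost without P36 ileum replicate 1 (0.47, adjusted p = 0.0717).

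The genes whose log2 CPM over the 16 libraries was most like that of each receptor or pump were found by Pearson's r, which is a description, since the 16 libraries fall into 4 groups. For Nr1i2 they were Por (0.973), Rhog (0.964) and AU040320 (0.961), and for Nr1i3 Atp7b (0.978), Slc7a8 (0.975) and Slc3a2 (0.966), the last 2 encoding partners in one amino acid transporter. For Ahr they were Uhrf1bp1l (0.914), Ptgdr (0.907) and Uprt (0.898), and for Abcb1a they included Frmd3 (0.938) and Nostrin (0.936). After Gm10768, Abcc2 was closest to AW549877 (0.967) and Sox6 (0.966). Abcg2 was closest to Tmem131 (0.960), Atp2b1 (0.934) and Ssfa2 (0.932), and Abcc3 to Gpr160 (0.987), Pigr (0.987) and Slc16a5 (0.985). Pigr, the carrier of IgA to the lumen, went from 185 CPM in P6 jejunum to 4696 in P36 jejunum. Among the 7 genes themselves r was most negative for Abcc2 with Abcc3 (-0.79) and most positive for Nr1i3 with Abcc2 (0.63), Ahr with Abcb1a (0.60) and Nr1i2 with Nr1i3 (0.57).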

How the data were processed

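The deposited files hold raw read counts per gene, 1 table for each of the 16 libraries, as the authors made them. Per the labels and the file headers, Kapa stranded mRNA libraries were trimmed with Trimmomatic 0.38, aligned to mm10 with STAR (2.5.3 in the labels), and counted with featureCounts 1.6.3 on the reverse strand over UCSC exons, without reads that matched several places or genes. Groups and mouse identities came from the sample titles.

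The counts were filtered by filterByExpr (13429 of 24421 genes kept), scaled by TMM and fitted in 1 model with 4 group means by the edgeR 4.0.16 quasi-likelihood test in R 4.3.3, with Benjamini-Hochberg adjustment over all genes tested and a threshold of 0.05. A further rule asked for an absolute log2 fold change above 2. Ratios of counts per kilobase, each count plus 1, were compared by exact permutation. Fold changes come from the fit, and TPM from the counted exon lengths. Promoters came from RefSeq (GRCm38.p6), and coding sequences and GC content (longest transcript) from GENCODE vM21.

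The 8 genes, the pathway lists and the tests were chosen with earlier results of these data known. Beside the 8 genes, those named are the 4 most abundant tested genes of each list, Cyp1a1, Cyp3a11, Cyp2b10, Ahrr, Tiparp, Rxra and Arnt, the 3 genes most like each tested member (1 is not reported here), and markers that moved with a result.

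Both regions of a mouse shared deviations from their group means (r from 0.157 to 0.391 in 8 pairs), so fits with the mouse as a block were made. The other alternatives were DESeq2 1.42.0, median-of-ratios scaling, library totals, no filter, a mean CPM of at least 1, sex as a covariate, the 8 libraries of a comparison alone, and each library left out. A correction for GC content was an alternative chosen after seeing the data. No pair of replicates was a copy (chi-square per gene from 13.2 to 285). The fit was checked on counts simulated with 200 altered genes (log2 fold change 3). It found 191 of them in the regional comparison at P6, 192 in that at P36, 190 in jejunum age and 186 in ileum age. False calls were 11, 6, 18 and 6 among 13429 genes. The simulated libraries were independent, without a shared mouse effect or a GC trend. The check does not cover smaller differences or data in which many genes differ.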

Additional observations from a re-analysis of the deposited data

Results flagged for a closer look

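Of the values measured, 6 lay far from the rest of their group of 4 libraries by Dixon's criterion, among 40 groups of values tested, and chance marks about 1 in 20. Nr1i2 was 49.8 CPM in P6 ileum replicate 4 against 99.7 to 106 in the rest, and Abcc2 was 2930 CPM in the same library. Abcb1b was 1.47 CPM there, from 30 read pairs. Abcb1b was 0.0436 CPM in P6 jejunum replicate 1, from 1 read pair against none in the other 3, which also set its log2 ratio to Abcb1a apart at -9.38, a value that rests on the 1 added to each count. Abcc3 was 99.6 CPM in P36 ileum replicate 4.

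The regional difference changed with age for 3 genes by the interaction test of edgeR (P6 difference less P36 difference, on the log2 scale). The value was -2.48 for Nr1i3 (adjusted p = 0.00599), -1.27 for Ahr (adjusted p = 0.00122) and -3.26 for Abcc2 (adjusted p = 0.00534). All 3 were called in every alternative run, each left-out library included.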

How the results depend on the processing

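No member reversed its direction for a call under any alternative. Of 812 combinations of a member, a comparison and an alternative, 759 kept their side of the threshold, 32 lost a call and 21 gained one, and of 188 counts of members 177 stayed within 1.5 times. The members past the fold minimum between the P6 regions went from 0 to 1 without a filter, and in the jejunum with age from 1 to 2. The member added was Abcb1b, which enters only without the filter and gave 1 read pair in all of P6 jejunum. Between the P36 regions the count past the fold minimum went from 2 to 1 with library totals and with the GC correction. It ranged from 1 to 2 when 1 library was left out. The members called between the P36 regions went from 3 to 5 with the replicate block and the GC correction together, and those called with age in the jejunum from 4 to 7 when its 8 libraries were fitted alone. With 1 library left out, 4 to 6 members were called between the P6 regions, 2 to 4 between the P36 regions, 3 in the jejunum with age, 3 to 6 in the ileum with age and 3 for the interaction. The cause of the other moves was not tested. Of the mouse as a replicate block, beside the values in the report, the random-effect fit changed no call but those of Ahr between the P36 regions and Abcc2 in the jejunum. Nr1i3 between the P6 regions was also lost with library totals (0.75, adjusted p = 0.0771), a scaling that moved the median log2 fold change of all genes by -0.29, and Abcb1a in the ileum with the 8 libraries alone (adjusted p = 0.0707). DESeq2 added Abcc2 between the P6 regions (adjusted p = 0.0248) and Ahr between the P36 regions (0.0399). Counts of list members moved past 1.5 times in 72 of 588 cases. With 4 libraries a group, an exact permutation p cannot fall below 0.0286, and Abcb1b was too shallow for a test of its level. Of 160 calls of list genes, 29 were lost without at least 1 library, as were 5 of the 20 calls of members.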
